A study of Homo sapiens with 9 samples.

Results

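The comparison described here is the column headed MK in a deposited table of comparisons with DMSO, read across all 13410 genes of that table, 1 row per Ensembl identifier, so that 13410 of 13410 genes are included. The cells were MV4-11, an established human leukaemia line of the myelomonocytic kind that carries the fusion of KMT2A (MLL) with AFF1 and an activated FLT3 receptor. The MK libraries are not among the 9 labelled ones, and the sources used here do not give the compound, its dose, its time or its number of libraries, so the group is called MK throughout. The labelled treatments were alisertib at 1000 nM, which blocks Aurora A as a kinase, and JB170 at 100 nM, a degrader of Aurora A, with 3 libraries each. MK was set against DMSO, the solvent of the compounds, taken here to be the 3 labelled libraries of cells kept in it for 18 h. The labelled treatments lasted as long. The table also has columns headed A1000, read here as alisertib because of its dose, A100, whose libraries carry no label, and JB170. All of the columns are headed as comparisons with DMSO and were taken to share the DMSO libraries, which the headers do not name. Whether the libraries are from separate cultures is not labelled, and the p-values therefore cover only the spread between libraries, which may be technical.

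Aurora A is a kinase of the centrosome and spindle that readies cells for mitosis and activates PLK1, which with cyclin B drives mitotic entry. Leukaemia cells stopped or slowed in mitosis usually carry more of the transcripts that peak in G2 and M phase. Another programme read from such data is the amino acid response, in which the factor ATF4 induces amino acid transporters, asparagine synthetase and the glutathione-degrading enzyme CHAC1.

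Every value of change with MK is a log2 fold change of MK minus DMSO from the authors' deposited table with its sign turned; the sign had to be inferred, because the header names DMSO first and does not say which group is on top. It was taken from the error that each p-value implies for its log2 fold change, which should be larger where the treated libraries have fewer reads. At a given mean level this holds only if that mean rests mainly on libraries other than the treated ones. The libraries behind the mean are not named, so this was assumed. Among genes changed by 1 or more on the log2 scale whose mean level was 0 to 4 log2 CPM (log2 of the read count scaled to library size), the median implied standard error was 0.77 for the 124 genes read as higher with MK and 0.94 for the 240 read as lower. The same measure gave 0.69 for genes read as higher and 0.91 for genes read as lower with A1000, and 0.76 and 0.94 with A100, which were turned likewise. With JB170 it was 0.89 on both sides and told nothing. The JB170 column was left as deposited, the sign with which its 4 called genes run as in the other columns, so a direction shared with JB170 follows from that choice and is no result. Were the sign of MK the other way, every direction given below would turn. A gene was called where the authors' deposited table gave it an adjusted p under 0.05. Intervals are implied 95% intervals, worked out from the log2 fold change and the p-value by the normal distribution, since no values per library were used and the depth is unknown.

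Few transcripts passed the test with MK. Of 13410 genes in the authors' deposited table, 63 were called (0.47%), 43 higher with MK (0.321%) and 20 lower (0.149%). Their median absolute log2 fold change was 0.78, a 1.71-fold difference, and 21 of them differed by at least 1 on the log2 scale, 19 higher and 2 lower. At an unadjusted p under 0.05 there were 1160 genes (8.65%), 545 higher and 615 lower. The last gene called was MFSD3 (adjusted p = 0.0476, the authors' deposited table), and the first one not called was BMF (adjusted p = 0.0541). The error differed between columns. The median implied standard error was 0.152 with MK, against 0.111 with A1000, 0.114 with A100 and 0.124 with JB170. It was taken over genes at 3 log2 CPM or more whose log2 fold change was at least 1 implied standard error from 0. That filter kept different genes in each column, 3660 with MK, 4747 with A1000, 4175 with A100 and 2241 with JB170. The smallest log2 fold change called was 0.48 with MK and 0.21 with A1000. The median error at each level was taken over genes changed by at least 1 implied standard error. At that error, a gene needed a log2 fold change of 2.20 at 0 to 2 log2 CPM, 0.61 at 4 to 6 and 0.47 at 8 or more for a call with MK. Genes with a smaller error than that median could be called at less, as was IER3 at 1.36. The other columns had 794 (5.92%, A1000), 174 (1.3%, A100) and 4 (0.0298%, JB170) genes called at the same threshold. Because their errors differ, these counts do not order the treatments by the size of their effect.

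**Figure D1:**
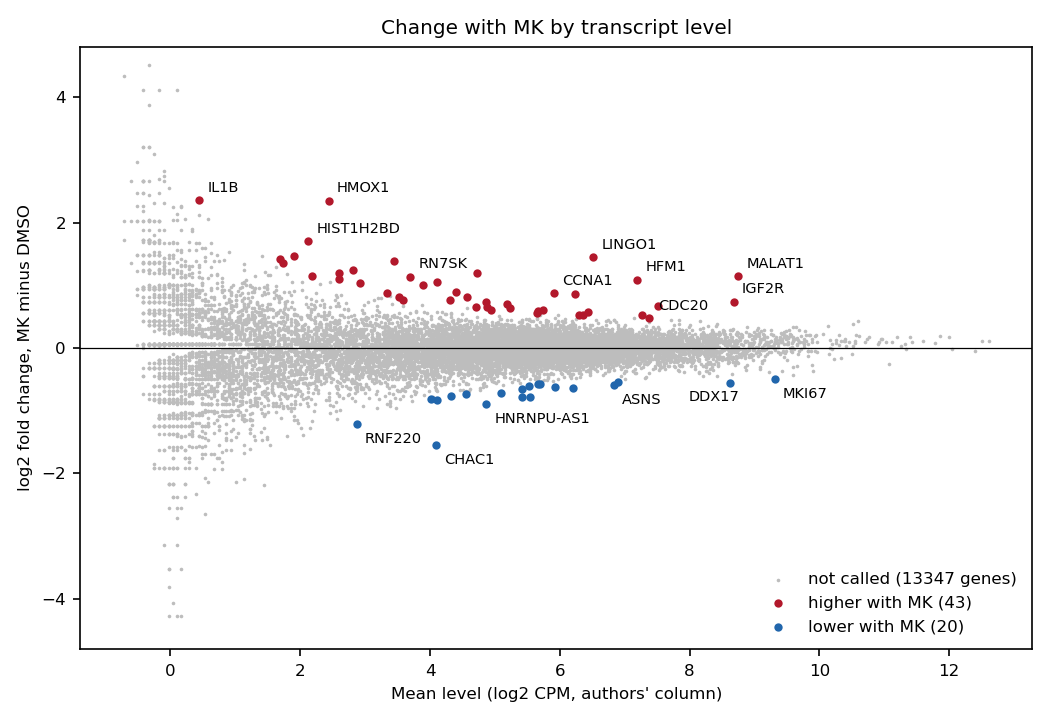
Log2 fold change of MK minus DMSO (vertical axis) against the authors' mean level in log2 CPM (horizontal axis), 1 point per gene. Red points are the 43 genes called higher with MK, blue points the 20 called lower and grey points those not called; the spread of the grey points widens below about 3 log2 CPM, where 12 of the 63 calls lie.

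Of 13 myeloid leukaemia markers 11 were in the table, from KIT at 0.58 to FLT3 at 9.88 log2 CPM, with the myeloid factor SPI1 at 8.26 and the surface antigen CD33 at 5.97. Of markers of other cells, 2 of 9 erythroid and megakaryocytic, 2 of 7 lymphoid and 3 of 8 epithelial, neural and fibroblast genes were listed, all between -0.10 and 2.80 log2 CPM. In the longer lists of such markers, NCAM1 was at 6.20 and the erythropoietin receptor gene EPOR at 4.27 log2 CPM. No marker of any of these groups was called with MK in the authors' deposited table, where 0.47% of all genes were called.

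The genes that rose most, at a level of at least 3 log2 CPM, came from several gene families. LINGO1, a leucine-rich repeat membrane protein best known from neurons, rose by a log2 fold change of 1.45 (implied interval 1.19 to 1.72, adjusted p = 4.61e-23 in the authors' deposited table), and was the gene with the smallest p-value. Its log2 fold change was 1.28 with A100 and 0.23 with A1000 in the authors' deposited table, and A1000 was not called (adjusted p = 0.149). MALAT1, an abundant long RNA of the nucleus, rose by 1.15 with MK (0.90 to 1.40, adjusted p = 6.36e-16), beside 0.45 with A1000, 0.02 with A100 and 0.11 with JB170 in the authors' deposited table. LINGO1 and MALAT1 thus stood higher with MK than with A1000 by value, and the difference between these columns was not tested.

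HFM1, a helicase gene of meiotic recombination, rose by a log2 fold change of 1.09 (0.83 to 1.36, adjusted p = 7.18e-13, the authors' deposited table). ANKRD30BL rose by 1.38 (adjusted p = 0.00122) and SLCO5A1, of the organic anion transporter family, by 0.86 (adjusted p = 1.72e-06), per the authors' deposited table. These genes had their largest values with A100, at 2.08 for HFM1, 2.31 for ANKRD30BL and 1.68 for SLCO5A1 on the log2 scale in the authors' deposited table. The same held for RNAs without a poly(A) tail, described below: RN7SK (1.84 with A100), RN28S1 (1.93) and RMRP (2.08), in the authors' deposited table. It did not hold for SCARNA2, another such RNA, at 1.56 with A100 and 1.67 with MK. Whether HFM1, ANKRD30BL and SLCO5A1 rose for the same reason as those RNAs was not tested. SAT1, which acetylates spermidine and spermine for their breakdown, rose by 1.05 (0.70 to 1.41, adjusted p = 1.02e-05 in the authors' deposited table). BTG2, an antiproliferative gene that p53 can induce, rose by 1.01 (0.63 to 1.39, adjusted p = 0.000185, the authors' deposited table). CCNA1, the cyclin A of germ cells and of myeloid leukaemia, rose by 0.88 with MK (0.60 to 1.16, adjusted p = 1.33e-06), beside 1.25 with A1000 and 0.74 with A100 by the authors' deposited table. The vault protein gene MVP rose by 0.90, BAIAP2, an adaptor between membrane and actin, by 0.87, and the cochaperone gene DNAJB2 by 0.82, with adjusted p-values up to 0.0385 in the authors' deposited table. FTH1P10, a processed pseudogene of ferritin heavy chain, rose by 0.81 (adjusted p = 0.00145, the authors' deposited table); reads of such copies can be split with their parent, so the value is uncertain. FTH1 itself stood at 0.43 (adjusted p = 0.143, the authors' deposited table).

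The largest decrease at that level was in CHAC1, at a log2 fold change of -1.55 with MK (implied interval -1.99 to -1.11, adjusted p = 1.17e-08 in the authors' deposited table), a level 0.341 times that with DMSO. CHAC1 stood at -1.23 with A1000, -1.24 with A100 and -0.70 with JB170 in the authors' deposited table. HNRNPU-AS1 fell by 0.89 (adjusted p = 0.00122), and HNRNPU, on the other strand, stood at -0.36 (adjusted p = 0.232), in the authors' deposited table. The counting is not stated to use strand, so reads of this pair may not be told apart. DDX17, an RNA helicase of splicing and transcription, fell by 0.55 at the high level of 8.62 log2 CPM (adjusted p = 0.00748, the authors' deposited table); it was picked with its values in view.

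Among the other decreases, ALDOC, an aldolase of glycolysis, fell by 0.83 on the log2 scale (adjusted p = 0.026, the authors' deposited table). SLC39A10, a zinc importer, fell by 0.63 (adjusted p = 0.0105) and BACE1, the beta-secretase, by 0.65 (adjusted p = 0.0245), per the authors' deposited table. TCF19, a growth-regulated nuclear factor, fell by 0.78 (-1.11 to -0.46, adjusted p = 0.00174) with MK and stood at -0.48 with A1000 in the authors' deposited table. SPON2, a secreted matrix protein, fell by 0.74, BZRAP1 by 0.78, CECR6 by 0.77, HIVEP3 by 0.71 and the linker histone gene H1FX by 0.60, with adjusted p-values up to 0.0473 in the authors' deposited table. The pseudogene SCDP1 fell by 0.62 (adjusted p = 0.0218) and its parent SCD, the stearoyl-CoA desaturase, stood at -0.38 (adjusted p = 0.173, the authors' deposited table), so the value of this copy is uncertain. ANKRD18DP, also a pseudogene, fell by 0.82 (adjusted p = 0.0473, the authors' deposited table). With JB170 the log2 fold changes of these 14 decreased genes ran from -0.70 for CHAC1 to 0.10 for SCDP1 in the authors' deposited table.

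**Figure D2:**
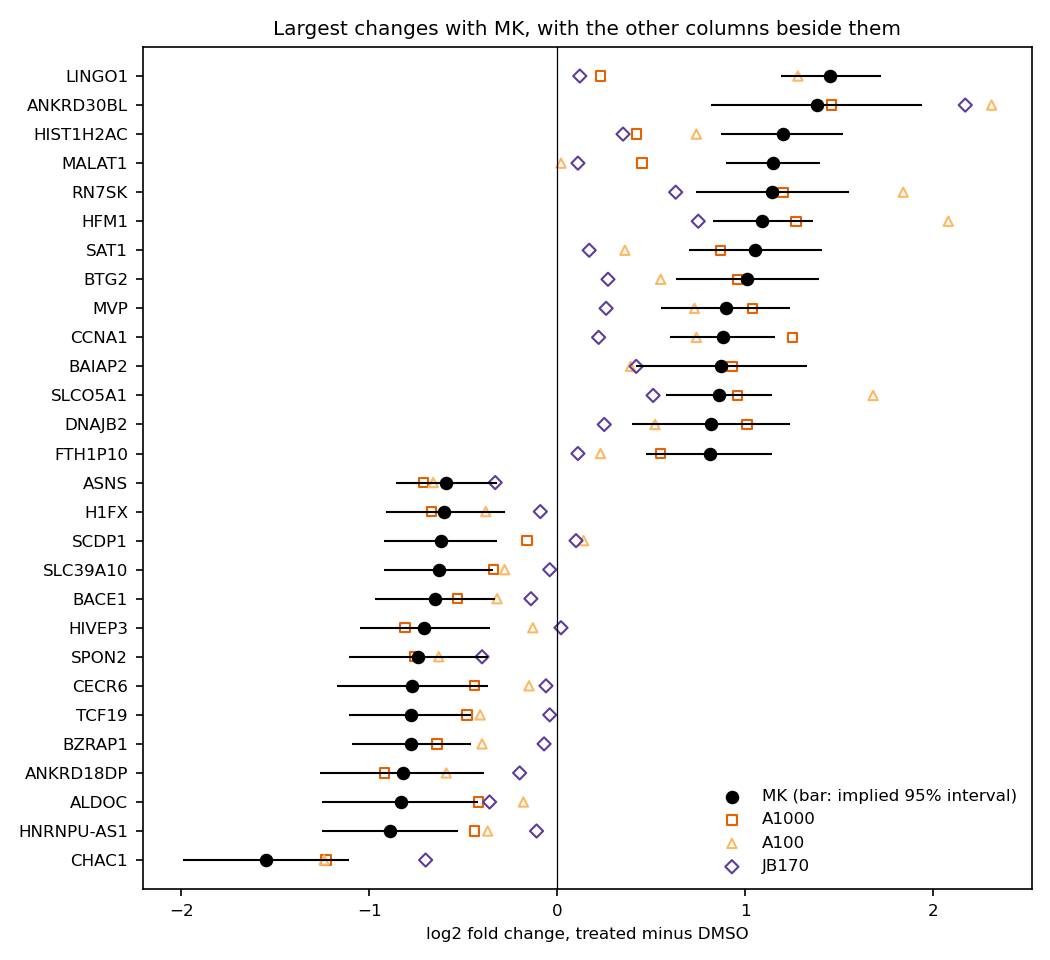
Log2 fold changes, treated minus DMSO, of the 28 genes with the largest called changes with MK at 3 log2 CPM or more. Black points are MK with its implied 95% interval, squares A1000, triangles A100 and diamonds JB170; LINGO1 and MALAT1 lie at 1.45 and 1.15 with MK and at 0.23 and 0.45 with A1000, while CHAC1 is the lowest gene with MK at -1.55.

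Most amino acid response genes had values below 0 with MK, and CHAC1 and ASNS fell. Of 44 measured genes 2 fell, 0 rose and 42 were not called (4.55% called, beside 0.149% of all genes called lower). The median log2 fold change of the list was -0.29, against 0.00 over all genes, and 40 of 44 lay below 0. At an unadjusted p under 0.05, which 8.65% of all genes passed, 23 members were lower and 0 higher. ASNS, which makes asparagine, fell by 0.59 (-0.86 to -0.32, adjusted p = 0.0103, the authors' deposited table). The amino acid transporters SLC38A2 (-0.45, adjusted p = 0.076), SLC7A1 (-0.43, adjusted p = 0.0872) and SLC7A11, the cystine importer (-0.89, adjusted p = 0.143), were not called in the authors' deposited table. SLC7A11 stood at 0.11 with A1000 in the authors' deposited table. The list's median was -0.26 with A1000, -0.12 with A100 and -0.09 with JB170.

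The promoters of the genes called in this list are shown because both hold the core of the element that ATF4 complexes bind in amino acid response genes. The letters searched were TGATGNAA, where N is any base, on both strands, and matches are in capitals. The windows are the 250 bases before the first listed start, 5′ to 3′ on the strand of the gene, from RefSeq on build GRCh38.p14.
CHAC1, chr15:40953221-40953470 (plus strand): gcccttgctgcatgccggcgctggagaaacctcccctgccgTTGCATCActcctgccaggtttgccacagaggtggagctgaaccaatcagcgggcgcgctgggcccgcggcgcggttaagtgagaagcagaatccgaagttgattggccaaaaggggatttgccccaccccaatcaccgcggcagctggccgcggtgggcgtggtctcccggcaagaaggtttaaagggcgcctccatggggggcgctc
ASNS, chr7:97872409-97872658 (minus strand): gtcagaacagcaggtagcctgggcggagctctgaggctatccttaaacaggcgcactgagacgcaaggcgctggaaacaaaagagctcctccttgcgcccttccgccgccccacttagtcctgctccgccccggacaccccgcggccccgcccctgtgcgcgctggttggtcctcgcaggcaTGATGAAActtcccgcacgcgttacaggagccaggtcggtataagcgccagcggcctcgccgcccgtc
The match began 209 bases before the start in CHAC1 and 68 bases before it in ASNS. Such a match was present in 3.14% of all 35116 promoter windows and in 5 of the 35 members of the list that had a window (14.3%). The share of all windows counts every window listed, while a list member counts by its first window only, so these shares are not of like units. A match is a description of letters and does not show that a factor was bound.

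Chaperones of the unfolded protein response, the other arm of the stress response that shares targets with ATF4, were not called with MK: 0 of 26 passed, with a median log2 fold change of 0.04 and 1 member at an unadjusted p under 0.05. Over all genes 0.47% were called and 8.65% passed that unadjusted p. With those shares, 0 calls in a list of this size is no result about its genes. HERPUD1, of the degradation pathway of the endoplasmic reticulum, stood at -0.27 with MK (adjusted p = 0.611) and at -0.68 with A1000 (adjusted p = 4.54e-08) in the authors' deposited table. The calcium-binding chaperone gene CALR stood at 0.39 (adjusted p = 0.16), and the chaperone genes HSP90B1 and PDIA3 both at 0.19 (adjusted p up to 0.739), in the authors' deposited table. Of 22 heat shock genes 0 were called (median 0.05, 2 at an unadjusted p under 0.05), with DNAJA1 nearest the threshold at 0.28 (adjusted p = 0.461, the authors' deposited table). The HSP70 genes HSPA1A (-0.26) and HSPA1B (-0.28), near-identical copies that can share reads, and HSPB1 (0.23) had adjusted p-values up to 0.635 in the authors' deposited table.

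Histone genes held the largest set of calls of any list. Of 45 replication-dependent histone genes 6 rose, 0 fell and 39 were not called (13.3% called, beside 0.321% of all genes called higher). The list's median log2 fold change was 0.63, with 36 of 45 above 0, and it was 0.31 with A1000, 0.50 with A100 and 0.28 with JB170. HIST1H2AC, which encodes a histone H2A, rose by 1.20 with MK (0.87 to 1.52, adjusted p = 8.43e-10) in the authors' deposited table, where A1000 gave 0.42 (adjusted p = 0.0547). HIST1H2BD rose by 1.70 (adjusted p = 6.56e-05), HIST1H2BJ by 1.46 (adjusted p = 0.00514) and HIST1H2BK by 0.64 (adjusted p = 0.0174), per the authors' deposited table. HIST2H4A (1.19) and HIST2H4B (1.10), near-identical copies that can share reads, also rose in the authors' deposited table. Of the 6, only HIST1H2AC and HIST1H2BK had a mean level of at least 3 log2 CPM.

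Most histone transcripts of S phase end in a stem-loop and not in a poly(A) tail, while the libraries were made from poly(A) RNA per the labels' protocols. Whether the histone transcripts called here carried a tail was not examined. In a separate list of RNAs without a tail 75% were called, beside 0.47% of all genes. Of 4 such RNAs measured 3 rose: RN7SK, which holds the elongation factor P-TEFb inactive, by 1.14 (adjusted p = 5.23e-05), the ribosomal RNA RN28S1 by 1.25 (adjusted p = 0.00122) and RMRP by 1.04 (adjusted p = 0.0268), per the authors' deposited table. SCARNA2, the other one, stood at 1.67 at a level of 0.10 log2 CPM (adjusted p = 0.599, the authors' deposited table). Their median log2 fold change was 1.20 with MK, 1.09 with A1000, 1.88 with A100 and 0.68 with JB170. Their part in the histone result was not tested.

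Of the 6 histone genes that rose, 4 had a matched promoter window. The 3 shown were chosen because they hold the octamer, the element through which OCT1 acts on H2B genes; the window of HIST1H2BD had no match. The letters searched were ATGCAAAT on both strands, in capitals, in windows of the same kind and build.
HIST1H2AC (H2AC6), chr6:26123922-26124171 (plus strand): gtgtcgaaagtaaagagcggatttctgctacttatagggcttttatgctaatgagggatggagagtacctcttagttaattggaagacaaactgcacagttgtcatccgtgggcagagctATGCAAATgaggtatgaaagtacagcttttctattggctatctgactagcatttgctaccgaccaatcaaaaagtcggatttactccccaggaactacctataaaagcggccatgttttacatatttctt
HIST1H2BJ (H2BC11), chr6:27132796-27133045 (minus strand): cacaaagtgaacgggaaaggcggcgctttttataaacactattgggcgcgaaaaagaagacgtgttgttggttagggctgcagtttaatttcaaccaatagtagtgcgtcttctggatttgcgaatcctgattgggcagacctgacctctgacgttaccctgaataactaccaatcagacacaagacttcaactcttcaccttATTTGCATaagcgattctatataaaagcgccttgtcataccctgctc
HIST1H2BK (H2BC12), chr6:27146859-27147108 (minus strand): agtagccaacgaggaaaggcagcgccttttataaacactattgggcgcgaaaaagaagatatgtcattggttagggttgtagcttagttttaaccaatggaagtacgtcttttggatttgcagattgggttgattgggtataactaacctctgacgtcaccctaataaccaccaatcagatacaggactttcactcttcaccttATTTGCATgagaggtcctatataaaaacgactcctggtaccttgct
The octamer began 130, 47 and 46 bases before the start in this order. It was found in 1.63% of all windows and in 7 of the 20 histone genes with a window (35%), with windows counted as for the ATF4 element.

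Of 78 genes of G2/M and mitosis 2 rose, 1 fell and 75 were not called (3.85% called, beside 0.47% of all genes), with a median log2 fold change of 0.07 and 45 above 0. At an unadjusted p under 0.05, which 8.65% of all genes passed, 17 were higher and 2 lower. CDC20, which turns on the anaphase-promoting complex, rose by 0.48 (0.23 to 0.74, adjusted p = 0.0473), and HMMR, a spindle assembly factor, by 0.53 (0.25 to 0.80, adjusted p = 0.0409), in the authors' deposited table. MKI67, the proliferation antigen that coats mitotic chromosomes, fell by 0.50 (-0.75 to -0.26, adjusted p = 0.0245) with MK and stood at -0.12 with A1000 and 0.13 with A100 in the authors' deposited table. In bulk RNA, fewer cells in a phase and less RNA per cell cannot be told apart.

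AURKA, which encodes Aurora A, stood at 0.48 with MK (0.22 to 0.74, adjusted p = 0.0598) and at 0.49 with A1000 (adjusted p = 1.59e-06) in the authors' deposited table. PLK1, its substrate kinase, stood at 0.45 (adjusted p = 0.0799) and CCNB1, which encodes cyclin B, at 0.43 (adjusted p = 0.107) with MK, neither called in the authors' deposited table. With A1000 the values of PLK1 and CCNB1 were 0.51 and 0.41 in the authors' deposited table, both called there. AURKB, which encodes the passenger complex kinase Aurora B, stood at -0.05 (-0.33 to 0.23) and TPX2, the spindle activator of Aurora A, at 0.08 (-0.17 to 0.33) with MK in the authors' deposited table. Of the 21 measured Aurora kinases, activators and partners 1 rose (HMMR, 4.76% called, beside 0.47% of all genes), and the median was 0.06. BIRC5, which encodes survivin, stood at 0.38 (adjusted p = 0.219, the authors' deposited table).

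The promoters of the mitotic genes that rose are shown because they hold the letters of the cell cycle homology region, the element by which the DREAM and MuvB complexes time G2/M genes. The letters searched were TTTGAA on both strands, in capitals, in windows of the same kind and build.
CDC20, chr1:43358731-43358980 (plus strand): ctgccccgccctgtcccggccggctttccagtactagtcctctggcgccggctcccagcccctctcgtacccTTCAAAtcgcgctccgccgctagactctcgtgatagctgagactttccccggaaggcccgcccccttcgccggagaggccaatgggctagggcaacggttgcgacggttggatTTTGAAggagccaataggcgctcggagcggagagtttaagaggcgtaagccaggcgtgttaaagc
HMMR, chr5:163460382-163460631 (plus strand): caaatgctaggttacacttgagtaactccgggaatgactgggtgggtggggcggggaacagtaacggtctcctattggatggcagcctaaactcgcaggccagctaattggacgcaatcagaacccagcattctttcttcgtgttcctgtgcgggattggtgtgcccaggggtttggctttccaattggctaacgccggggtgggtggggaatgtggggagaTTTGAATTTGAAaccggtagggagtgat
CDC20 had matches beginning 178 and 65 bases before the start, and HMMR had adjoining matches beginning 28 and 22 bases before it. These letters were present in 13.3% of all windows and in 31 of 67 mitotic genes with a window (46.3%), with windows counted as for the ATF4 element.

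No gene of S phase and DNA replication was called with MK (0 of 70, median log2 fold change -0.07, 45 below 0). Over all genes 0.47% were called, so 0 calls in a list of this size is no result about its genes. At an unadjusted p under 0.05, which 8.65% of all genes passed, 5 were lower and 0 higher. Thymidylate synthase TYMS stood at -0.49 (adjusted p = 0.121) and cyclin gene CCNE2 at -0.57 (adjusted p = 0.292) in the authors' deposited table. The nuclease gene EXO1 stood at -0.35 (adjusted p = 0.367) and POLA1, of the polymerase that primes replication, at -0.32 (adjusted p = 0.489) in the authors' deposited table. DNA damage and repair genes were likewise not called (0 of 47, median -0.10, 6 lower and 0 higher at an unadjusted p under 0.05). FANCI, of the crosslink repair complex, was nearest the threshold at -0.48 (adjusted p = 0.0603, the authors' deposited table), and the ligase gene LIG3 stood at -0.50 (adjusted p = 0.143) and FANCA at -0.33 (adjusted p = 0.482). Among 36 cyclins, cyclin-dependent kinases and inhibitors only CCNA1 was called (2.78%). The phosphatase gene CDC25B stood at 0.35 (adjusted p = 0.404, the authors' deposited table). Of 23 p53 targets BTG2 alone rose (4.35% called, median 0.11). MDM2, which degrades p53, stood at -0.22 (-0.57 to 0.12) and the growth arrest gene GADD45A at -0.66 (adjusted p = 0.299) in the authors' deposited table. SESN2 stood at -0.39 (adjusted p = 0.46) and PLK3 at 0.45 (adjusted p = 0.66) in the authors' deposited table. Of 17 genes of the BCL2 family 0 were called, 14 lay above 0 and 4 were higher at an unadjusted p under 0.05 (median 0.14). BMF, a BH3-only activator of cell death, stood at 0.64 with MK (0.30 to 0.98, adjusted p = 0.0541) and at 0.94 with A1000 in the authors' deposited table. Of the others with small p-values, the BH3-only genes BIK (0.56, adjusted p = 0.169) and BAD (0.82, adjusted p = 0.292) and BCL2L12 (0.45, adjusted p = 0.177) were not called in the authors' deposited table.

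Of 21 genes of NF-kB and inflammatory mediators IL1B and IER3 rose and 0 fell (9.52% called, beside 0.321% of all genes called higher). The list's median log2 fold change was 0.23, with 20 above 0, where 49.9% of all genes lay above 0. Both calls were of genes under 2 log2 CPM, so that 0 members at 3 log2 CPM or more were called, and 0 passed at an adjusted p under 0.01. IL1B, the cytokine interleukin 1 beta, rose by 2.36 (1.13 to 3.59, adjusted p = 0.0436) at a level of 0.44 log2 CPM in the authors' deposited table. IER3, an immediate early gene at 1.73 log2 CPM, rose by 1.36 with MK (0.69 to 2.04, adjusted p = 0.0268) and stood at 0.03 with A1000 in the authors' deposited table. BCL3, a nuclear IkB protein (0.79, adjusted p = 0.088), and the NF-kB subunit gene RELB (0.48, adjusted p = 0.404) were not called in the authors' deposited table. IER3 was also the only gene called among 22 immediate early factors (4.55% called, median 0.08). The same held among 26 genes of STAT5 and ERK output (3.85% called, median -0.07), beside 0.47% of all genes. PIM1, a kinase gene that STAT5 induces, stood at -0.39 (adjusted p = 0.175), DUSP10 at 0.37 (adjusted p = 0.518) and SPRY2 at -0.32 (adjusted p = 0.711) in the authors' deposited table. Of the immediate early factors, KLF10 stood at 0.57 (adjusted p = 0.199), ZFP36L1 at -1.54 at a level of 1.53 log2 CPM (adjusted p = 0.257) and JUND at -0.29 (adjusted p = 0.461) in the authors' deposited table.

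HMOX1, the haem-degrading enzyme induced by oxidants and haem, had the largest fold change among genes called with a level of at least 2 log2 CPM. It rose by 2.35 with MK (1.83 to 2.87, a 5.09-fold difference, adjusted p = 4.89e-15), beside 2.53 with A1000, 1.89 with A100 and 0.92 with JB170, in the authors' deposited table. The rest of a list of 22 antioxidant and iron genes, put together after the values of HMOX1 were seen, was not called. The median of that list was 0.17, with 18 above 0 and 4 below. Among those below was SLC7A11 at -0.89 (adjusted p = 0.143, the authors' deposited table). NQO1, another enzyme induced by oxidants, stood at 0.30 (adjusted p = 0.644), SQSTM1, the autophagy receptor p62, at 0.47 (adjusted p = 0.102) and the malic enzyme gene ME1 at 2.06 at a level of 0.58 log2 CPM (adjusted p = 0.076) in the authors' deposited table. TXNIP, an inhibitor of thioredoxin and of glucose uptake, rose by 0.53 (0.27 to 0.79, adjusted p = 0.0233) with MK, beside 0.91 with A1000, in the authors' deposited table. TXNIP was the 1 gene called of 15 in the MYC network list (6.67% called, beside 0.47% of all genes, median -0.02). MYC stood at -0.19 (-0.43 to 0.06), its target ODC1, of polyamine synthesis, at 0.29 (adjusted p = 0.452), MXI1 at -0.32 and MLXIPL at 1.04 (adjusted p = 0.605 each) in the authors' deposited table. CYP1A1, a target of the aryl hydrocarbon receptor picked with its values in view, rose by 1.15 (0.56 to 1.74, adjusted p = 0.0385, the authors' deposited table).

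**Figure D3:**
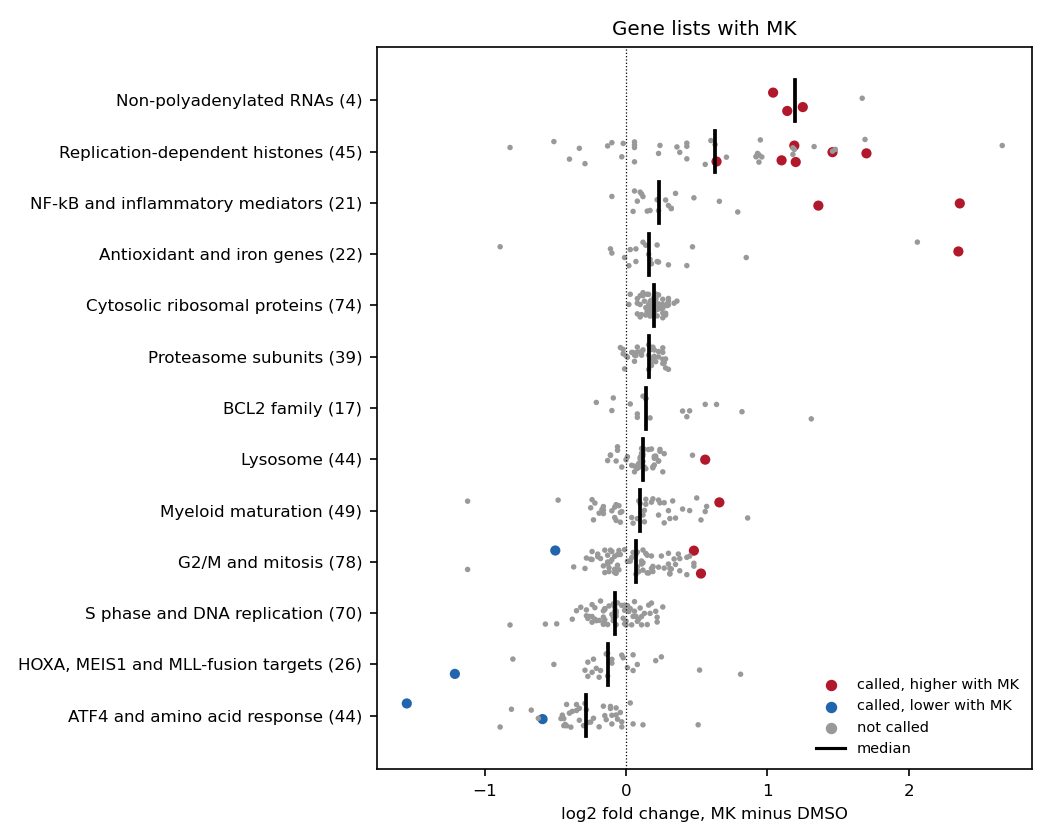
Log2 fold changes of MK minus DMSO for the measured members of 13 gene lists (number of members in brackets), 1 point per gene, with a black bar at the median. Large red and blue points are genes called higher and lower; the histone median is 0.63 and the amino acid response median -0.29, while all 74 cytosolic ribosomal protein genes lie above 0 with 0 of them called.

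Several groups of housekeeping genes had medians slightly above 0 with MK, without a call. All 74 measured cytosolic ribosomal protein genes had a log2 fold change above 0, from 0.02 to 0.36, with a median of 0.20. None of them was called, where 0.47% of all genes were. At an unadjusted p under 0.05, which 8.65% of all genes passed, 16 were higher. RPS9 had the smallest p-value, at 0.34 (0.09 to 0.58, adjusted p = 0.296, the authors' deposited table), followed by RPS15A at 0.36, RPL24 at 0.30 and RPL34 at 0.30. The median of the same genes was 0.05 with A1000, -0.05 with A100 and -0.05 with JB170. Of 39 proteasome genes 34 lay above 0 (median 0.16, 0 called, 6 higher at an unadjusted p under 0.05), with PSMD4 at 0.30, POMP at 0.28, PSMB8 at 0.28 and PSMA4 at 0.26 in the authors' deposited table. Respiratory chain and ATP synthase genes (58 of 66 above 0, median 0.14, 0 called, 4 higher at an unadjusted p under 0.05) and mitochondrial ribosomal protein genes (46 of 61 above 0, median 0.10, 0 called, 4 higher and 1 lower at an unadjusted p under 0.05) were listed after the values were seen. In neither of these mitochondrial lists was the share at that unadjusted p above the 8.65% of all genes. NDUFA2 of the respiratory chain stood at 0.36 (adjusted p = 0.461) and MRPL14 of the mitochondrial ribosome at 0.37 (adjusted p = 0.322) in the authors' deposited table.

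Transcript length moved with these groups. Among 8679 protein-coding genes at 3 log2 CPM or more, the 1447 whose longest GENCODE transcript had 381 to 2058 bases had a median log2 fold change of 0.09 with MK, and 70.9% of them lay above 0. In the 1447 with 6473 to 34526 bases the median was -0.07 and 34.2% lay above 0. The medians of the groups between fell in order, at 0.03, 0.00, -0.01 and -0.04. With A1000 and A100 the order was turned. The medians in the shortest and the longest group were -0.04 and 0.04 for A1000, and -0.07 and 0.08 for A100. With JB170 they were -0.03 and 0.03. The direction with JB170, here and in the correlation that follows, rests on the sign chosen for that column. Spearman's rho of change with length across genes was -0.28 with MK, 0.15 with A1000, 0.31 with A100 and 0.17 with JB170, as a description, since genes of the same libraries are not independent. After the median of genes of like length was taken off, the ribosomal protein median was 0.14, the proteasome median 0.14 and the amino acid response median -0.27. The respiratory chain median was then 0.08 in place of 0.14, the mitochondrial ribosome median 0.06 in place of 0.10 and the histone median 0.83 in place of 0.63. The median longest transcript of the ribosomal protein genes was 1826 bases, against 3434 bases for the amino acid response genes. The part of length, or of RNA quality, in these small shifts was not tested. Of the protein-coding genes called at this level, the shortest group held 9 higher and 4 lower, and the longest group 3 of each.

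**Figure D4:**
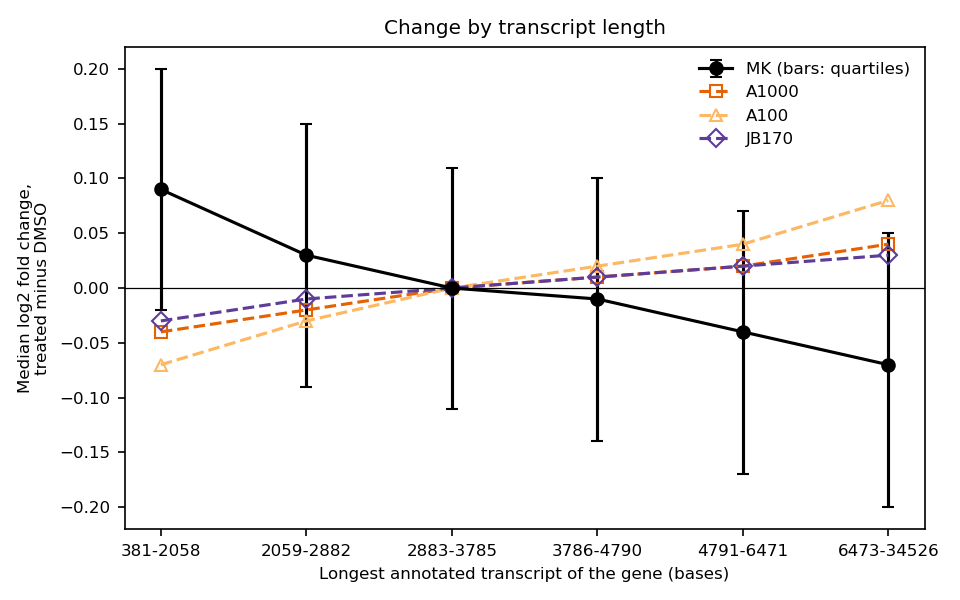
Median log2 fold change, treated minus DMSO (vertical axis), of protein-coding genes in 6 groups of longest annotated transcript (horizontal axis, bases), with quartiles as bars for MK. The MK median falls with length, 0.09 in the shortest and -0.07 in the longest group, and the medians of A1000, A100 and JB170 rise. The direction with JB170 rests on the sign chosen for that column.

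Genes of the leukaemic programme of the line were read as a list of HOXA, MEIS1 and MLL-fusion targets. Of 26 measured 1 fell and 0 rose (3.85% called, beside 0.47% of all genes). The median log2 fold change was -0.13, with 18 below 0. The one that fell was RNF220, a ubiquitin ligase gene, by 1.21 (-1.83 to -0.60, adjusted p = 0.0335) in the authors' deposited table. FLT3, the receptor kinase, stood at -0.27 (-0.52 to -0.03, adjusted p = 0.489) and MEIS1, the homeobox cofactor, at -0.29 (-0.59 to 0.01, adjusted p = 0.606), neither called in the authors' deposited table. HOXA9 was measured at the low level of 1.41 log2 CPM, where its interval ran from -0.94 to 1.98. SENP6, a SUMO protease gene, stood at -0.51 (adjusted p = 0.106) and CPEB2 at -0.80 (adjusted p = 0.307) in the authors' deposited table. Among 49 genes of myeloid maturation 1 rose (2.04% called, list median 0.10). It was ANPEP, the surface peptidase CD13, at 0.66 (0.32 to 0.99, adjusted p = 0.0352) with MK beside 1.02 with A1000 in the authors' deposited table. In that list CD68 stood at 0.33 (adjusted p = 0.526), VIM, which encodes vimentin, at 0.35 (adjusted p = 0.266) and the costimulatory CD86 at 0.56 (adjusted p = 0.537) in the authors' deposited table. Of 44 lysosomal genes only the sialidase NEU1 was called (2.27%), higher by 0.56 (adjusted p = 0.0409, the authors' deposited table). In that list 37 lay above 0 (median 0.12), among them PSAP at 0.27 and ATP6V0B at 0.26. Of 33 glycolysis and hypoxia genes ALDOC was the 1 called (3.03%). The collagen hydroxylase gene P4HA2 stood at -1.28 (adjusted p = 0.115), NDRG1 at 0.45 (adjusted p = 0.127) and DDIT4, an mTOR inhibitor, at -0.42 (adjusted p = 0.245) in the authors' deposited table.

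In the remaining lists no member was called in the authors' deposited table. Interferon response genes had a median log2 fold change of 0.12 over 41 members. At an unadjusted p under 0.05, which 8.65% of all genes passed, 9 members of this list were higher and 0 lower. Its leading members were BST2 (tetherin) at 0.45 (adjusted p = 0.115), IFI6 at 0.56 (adjusted p = 0.228), the factor IRF1 at 0.37 and IFI30 at 0.34 in the authors' deposited table. Cholesterol and fatty acid synthesis genes had a median of -0.07 over 32, with 2 higher and 8 lower at that level, and ribosome biogenesis genes a median of 0.03 over 50, with 2 higher and 1 lower. INSIG1, HMGCS1 and FASN, which act in sterol feedback, sterol synthesis and fatty acid synthesis, stood at -0.37, -0.36 and -0.29 in the authors' deposited table. Of the ribosome biogenesis genes, DDX10 stood at 0.36, NOP14 at -0.63, LYAR at 0.27 and GAR1 at 0.26 in the authors' deposited table. Azurophil granule genes (14 members, median 0.08), haematopoietic transcription factors (30, median -0.02), HLA genes (20, median 0.04) and tubulins with non-mitotic kinesins (18, median -0.10) had 2 to 5 members at an unadjusted p under 0.05. SRGN, the granule proteoglycan serglycin, stood nearest the threshold at 0.43 (adjusted p = 0.0761), with RNASE2 at -0.32, lysozyme LYZ at 0.27 and CFD at 0.17, in the authors' deposited table. Among the transcription factors ID2 stood at 0.44, CEBPD at 0.35, IKZF1 at -0.29 and CEBPG at -0.28 in the authors' deposited table. B2M, the light chain of class I molecules, stood at 0.35, HLA-B at 0.28 and CIITA, which drives class II genes, at -0.48 in the authors' deposited table. The kinesin gene KIF21B stood at -0.43 and the tubulin genes TUBB2B at 0.52, TUBB at -0.26 and TUBB6 at 0.28 in the authors' deposited table. Genes of the cereblon ligase and its substrates had a median of -0.04 over 14, 1 of them at that level, with CRBN, the substrate receptor, at 0.01 (-0.41 to 0.42), ZNF276 at -0.28, RNF166 at -0.22 and ZNF692 at -0.19 in the authors' deposited table. Marker lists of other cells had medians of -0.16 (erythroid and megakaryocytic, 5 measured), 0.31 (lymphoid, 7 measured) and 0.52 (epithelial, neuroblastoma and fibroblast, 4 measured), with 1, 1 and 0 members at an unadjusted p under 0.05. NCAM1, a marker of natural killer cells that leukaemia cells can carry, had a log2 fold change of -0.42 (adjusted p = 0.232, the authors' deposited table). KLF1 stood at -1.17, GP1BA at -1.05, ITGA2B at 0.39 and EPOR at -0.16, and CD79B at 1.19 and GNLY at 0.70, in the authors' deposited table. COL1A1 stood at 0.92, PDGFRB at 0.94, KRT8 at 0.11 and KRT18 at -0.07 in the authors' deposited table. Over all 33 lists 23 of 955 distinct genes were called, and 15 lists held at least 1 of them. Of all 13410 genes 63 were called (0.47%). The lists were written with earlier results of these data known, so a higher share in them is no independent result.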

How the data were processed

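RNA of MV4-11 cells was sequenced after poly(A) selection from directional libraries, per the labels' protocols. The submitters' processing notes list TopHat2 2.1.1, Bowtie2 2.3.2, FastQC and build hg19. How reads were counted, normalized and tested is not given in the sources used here. Values were those of the authors' table: deposited log2 fold changes, a deposited mean log2 CPM over libraries the header does not name, and deposited p-values with adjusted p-values, per the file headers. No values per library were used, so depth is unknown. From 13485 rows, 80 with 5 repeated identifiers, whose values were the same, were reduced to 13410 genes. The method of adjustment was taken to be that of Benjamini and Hochberg. The ratio of adjusted p to p then implies 16812 tests. On that reading 3402 tests, and 14 of 77 implied calls, are not analysed here.

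The columns MK, A1000 and A100 were multiplied by -1 and JB170 was kept, to give treated minus DMSO; all signs are inferred, that of JB170 only from the direction of its called genes in the other columns. Standard errors were implied by log2 fold change and p-value (Python 3.11.15, scipy 1.17.1) and tested on simulated data. Transcript lengths came from GENCODE 29, found for 13197 genes (98.4%). No test was computed here. Genes named were the 14 largest called changes in each direction at 3 log2 CPM or more, the 4 smallest p-values of each of 33 lists, and 12 fixed genes; some genes that the rule names are not reported here. Genes outside this rule, such as HMOX1, were picked with their values in view. The members and lists were chosen with earlier results of these data known. The thresholds, filters, centring and length correction tried are in the closing section.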

Additional observations from a re-analysis of the deposited data

How the results depend on the processing

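The count of 63 called genes (43 higher and 20 lower with MK) became 27 (22 higher, 5 lower) at an adjusted p under 0.01 and 103 (58 higher, 45 lower) at 0.1. It was 63 with p-values adjusted over the genes of the table, with all rows kept, or centred on the median of all genes, 64 (37 and 27) over genes at 3 log2 CPM or more with p-values adjusted over those, and 62 when a change of 0.5 or more on the log2 scale was also asked for. The 23 called genes of the 33 lists became 10 at 0.01, 32 at 0.1 and 14 at 3 log2 CPM or more. Without the level floor, 18 of the 28 genes named by size were kept. Of the called genes, 57 had a transcript length (38 higher, 19 lower); taking off the median of genes of like length, chosen after seeing the data, recomputed no p-value and was too small a shift to turn a call, so it does not test the calls. No paired analysis was possible because the table holds no values per library, and leaving out single libraries could not be run for the same reason. The threshold and the floor set the size of these counts by construction; for the rest the cause was not tested. At low levels only large changes could be called, and the sign of the column rests on an inference.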

Other observations

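Further genes were called with MK outside the lists; they were picked with their values in view. CXCR4, the receptor of the chemokine CXCL12 that holds leukaemia cells in the marrow, rose by a log2 fold change of 0.59 with MK (adjusted p = 0.0268) and stood at 0.65 with A1000 in the authors' deposited table. IGF2R, which carries mannose 6-phosphate enzymes to lysosomes, rose by 0.74 (0.49 to 0.99, adjusted p = 6.67e-06) with MK, beside 0.36 with A1000 and 0.86 with A100, in the authors' deposited table. CCS, the copper chaperone of superoxide dismutase, rose by 0.76 (adjusted p = 0.0105) and BASP1, a membrane-bound signalling protein, by 0.70 (adjusted p = 0.00472), per the authors' deposited table. The receptor phosphatase gene PTPRD rose by 0.77 (adjusted p = 0.0473) with MK and stood at 1.29 with A100 in the authors' deposited table.

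Some genes called with MK had values near 0 or below it with A1000, a difference that was not tested. CD82, a tetraspanin of the cell surface, rose by 0.58 with MK (0.31 to 0.85, adjusted p = 0.0143) and stood at -0.06 with A1000 in the authors' deposited table. LRG1, a secreted leucine-rich glycoprotein of neutrophils, rose by 0.65 with MK (0.33 to 0.98, adjusted p = 0.0271) and stood at -0.10 with A1000 in the authors' deposited table. C5orf62 rose by 0.61 with MK (adjusted p = 0.018) and stood at -0.24 with A1000 in the authors' deposited table. By position, 9 of the 57 called genes with a GENCODE record lay on chromosome 6, which held 713 genes of the table (5.32%); HIST1H2AC, HIST1H2BD, HIST1H2BJ and HIST1H2BK were among the 9.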
